A study of Homo sapiens with 5 samples.

Results

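The cells described here are MDA-MB-468 cells in which a guide RNA named gRNA3 was used with the VPR system to raise FOSL1 from its own gene, set against cells of the VPR control. They were chosen by the authors' assignment of each cell to a sample, and were kept if 1500 or more genes were detected and no more than 20% of their UMIs (unique transcript tags) came from mitochondrial (MT-) genes. This left 4299 of 4488 cells for gRNA3 and 2595 of 2720 for the VPR control, out of 14642 kept cells in the whole series. MDA-MB-468 is an established human line of triple-negative breast cancer. The 5 samples of the series were each marked with a hashtag antibody, pooled and sequenced as 1 library of 3' transcript tags. They were VPR FOSL1 gRNA3, VPR FOSL1 gRNA2 (a different guide to the same gene), HA FOSL1, the VPR control and the HA control. The labels spell out neither VPR nor HA, give no guide sequence, do not say whether a sample was 1 clone or a mixed population, and mention 5-FU treatment for the series without saying whether these samples received it.

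FOSL1 encodes FRA-1, a subunit of AP-1, a family of transcription factor dimers built from FOS and JUN proteins that bind a short, nearly palindromic DNA motif. AP-1 acts downstream of growth factor and MAPK signalling, and FRA-1 is known for high levels in basal-like and triple-negative breast cancer cells. In CRISPR activation a guide RNA brings an activator to the promoter of the resident gene, so the transcript comes from the cell's own locus.

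Each group held 1 sample, so no difference has a replicate check, no test between conditions was possible, and every interval covers counting error only. The gRNA3 sample held 85556699 gene UMIs with a median of 18121 per cell, and the VPR control held 44778587 with a median of 15810. Levels are therefore given as CPM, which divides a gene's UMIs by all gene UMIs of its sample so that every sample has an equal total. Ratios are log2 ratios of CPM + 1, gRNA3 over the VPR control unless another pair is named, with a 95% counting interval. Adding 1 CPM makes the ratios of weakly expressed genes smaller than their true size. Shares of cells with a UMI are given after each cell was thinned to 5000 UMIs, which left 4289 gRNA3 cells and 2587 VPR control cells. Unthinned shares are given beside them for the genes with the largest differences. Mitochondrial transcripts made up 10.1% of UMIs in gRNA3 cells and 11.1% in VPR control cells, and ribosomal protein transcripts 16.9% and 16.7%. What these differences in depth and mitochondrial share contribute to the gene ratios was not tested.

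Both samples carried the epithelial markers of the line. EPCAM was at 360 CPM in gRNA3 cells and 344 CPM in VPR control cells, and EGFR at 2339 and 1829 CPM. The 6 epithelial markers summed to 8518 CPM in gRNA3 cells and 7215 CPM in VPR control cells. PGR was at 0 in both, and ESR1 was at 2.63 CPM in gRNA3 cells and 1.83 CPM in VPR control cells. The 5 leukocyte markers summed to 2.65 CPM in gRNA3 cells and 0.759 CPM in VPR control cells, nearly all of it CD68, with TYROBP at 0 in both. The 4 endothelial markers summed to 0.947 CPM in gRNA3 cells and 0.424 CPM in VPR control cells, with CLDN5 at 0 in both. The 6 fibroblast markers summed to 2.93 CPM in gRNA3 cells and 4.27 CPM in VPR control cells, with COL1A2, DCN and LUM at 0 in both.

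FOSL1 (chr11:65892049-65900545 in GRCh38.p14) stood at 94.3 CPM in gRNA3 cells (95% interval 92.2 to 96.4, from 8066 UMIs), against 8.91 CPM in VPR control cells (8.06 to 9.83, from 399 UMIs). The level in CPM was 10.6-fold higher with gRNA3, and the log2 ratio of CPM + 1 was 3.27 (3.13 to 3.4). In the other samples it was 101 CPM with gRNA2, 63.5 CPM in HA FOSL1 cells and 8.96 CPM in the HA control. The controls thus lay within each other's counting intervals, and the 3 samples made to raise FOSL1 lay far above both. After thinning, 29.4% of gRNA3 cells held a FOSL1 UMI (28.0 to 30.7%), against 3.59% of VPR control cells (2.91 to 4.39%). Without thinning these shares were 61.5% and 11.8%. Positive cells held 1.43 UMIs on average with gRNA3 and 1.09 in the VPR control. Empty droplets of the pooled library carried FOSL1 at 63.4 CPM, above the level in either control, so part of the UMIs of control cells can be free RNA and cells without FOSL1 cannot be counted from these shares. The same limit holds for every share of cells below, since no cell type without these genes was in the pool to give a background share. Empty droplets carried OLFML3 at 32.2 CPM, CAV1 at 691 CPM, KRT14 at 152 CPM and S100A2 at 466 CPM, each above its level in VPR control cells. They carried S100A8 at 185 CPM, S100A9 at 1201 CPM and PI3 at 196 CPM, each above its level in gRNA3 cells. The shares are therefore counts of cells with a UMI, in the lower sample in particular, and not of cells that express the gene.

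Across the transcriptome few genes differed by 2-fold. Of 5743 genes that averaged 20 CPM or more in the pair, 24 (0.418%) were at least 2-fold higher in gRNA3 cells and 11 (0.192%) at least 2-fold lower. The same rule found 2 of 5726 genes (0.0349%) in either direction between the VPR control and the HA control. At 1.5-fold the counts were 55 higher (0.958%) and 48 lower (0.836%), against 15 genes (0.262%) between the controls. The shares for gRNA3 belong beside the counts of list members at 20 CPM below. No such share was counted over all detected genes, so counts of detected members have no background. Lists and their members were chosen with earlier results of these data known, so their counts are descriptions and no independent support. Some genes past 2-fold with gRNA3 also differed between the controls. Of the 24 higher genes 6, and of the 11 lower genes 2, were past 1.5-fold in either direction there. The SD of the log2 ratio over genes was 0.20 for gRNA3 over the VPR control and 0.10 for the VPR control over the HA control. Just inside the 2-fold line lay S100A3 (1.02) and IGSF23 (1.03), and just outside it CST6 (1.00 when rounded) and AGR2 (-0.99). Against the HA control 32 genes (0.56%) were past 2-fold higher and 25 (0.438%) lower, and 21 of the 24 higher genes and 10 of the 11 lower genes named above were among them. The exceptions were S100A2, ADAMTS1, ATP6V0D2 and S100A7. Both comparisons use the same gRNA3 sample, so this overlap is not an independent check. With a stricter cell filter of at least 3000 genes and at most 10% mitochondrial UMIs, which left 1750 gRNA3 and 722 VPR control cells, 15 of the 24 and 7 of the 11 remained. Among those that did not remain, CYP4X1 and PALMD were still past 2-fold lower but no longer averaged 20 CPM.

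**Figure D1:**
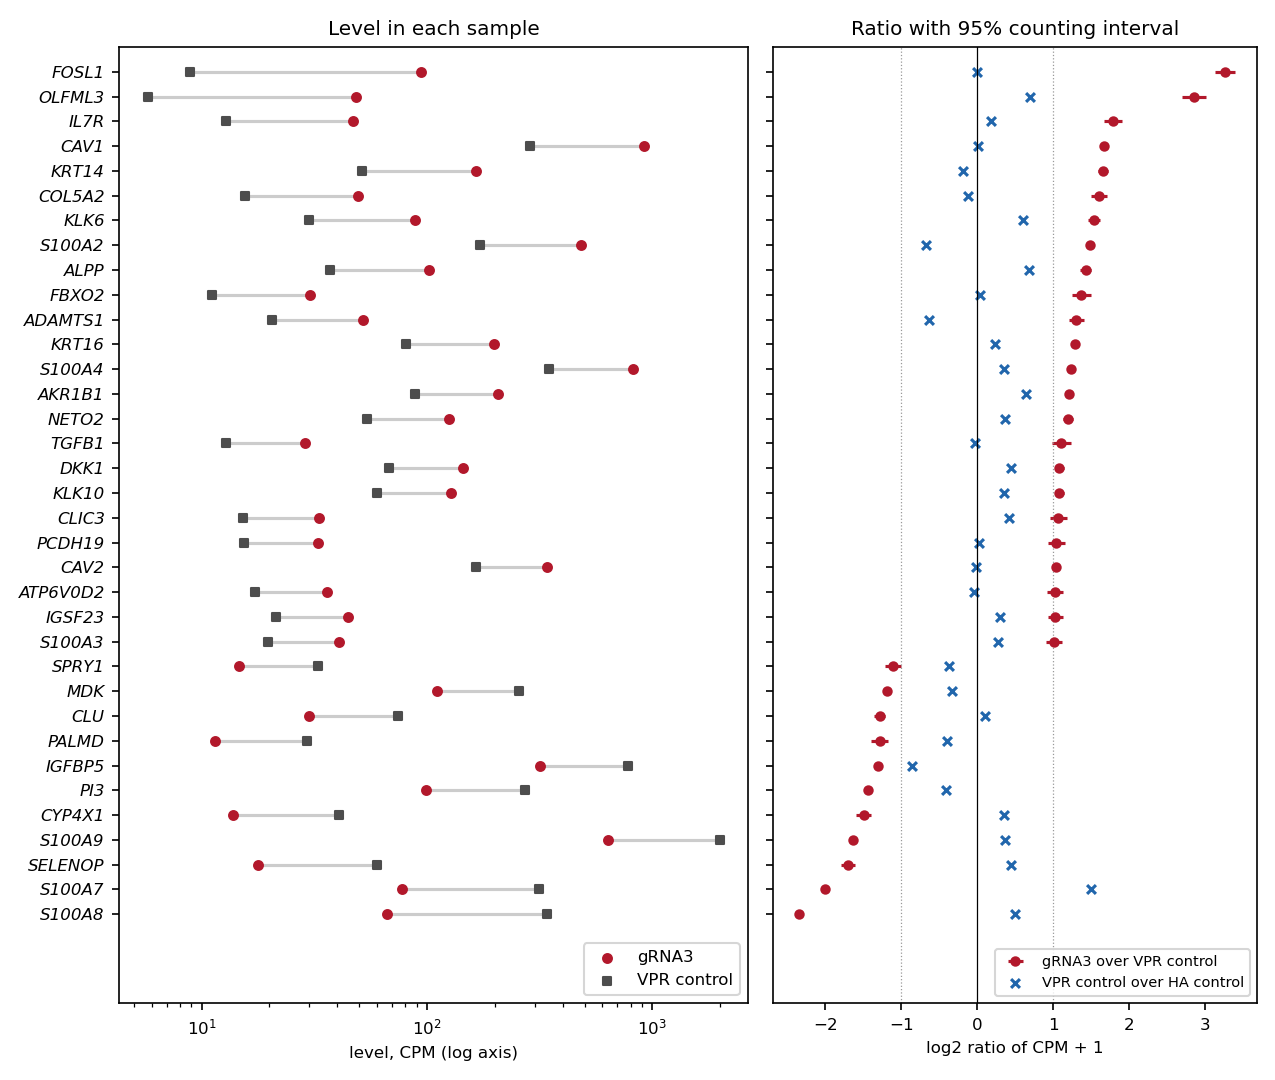
Levels in CPM on a log axis (left) of the 35 genes past 2-fold among those averaging 20 CPM or more, in gRNA3 cells (red circles) and VPR control cells (grey squares), and the log2 ratio of CPM + 1 with its 95% counting interval (right). Blue crosses give the VPR control over the HA control and dotted lines mark 2-fold. FOSL1 has the highest ratio at 3.27 and S100A8 the lowest at -2.35, and the S100A7 cross lies at 1.51.

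After FOSL1, the highest ratio belonged to OLFML3, which encodes a secreted olfactomedin-like protein. It stood at 48.3 CPM in gRNA3 cells, 18.9 CPM with gRNA2, 133 CPM in HA FOSL1 cells, 5.78 CPM in the VPR control and 3.17 CPM in the HA control. The log2 ratio was 2.86 (2.70 to 3.02), and after thinning 15.5% of gRNA3 cells held a UMI against 2.63% of VPR control cells (36.2% and 8.44% unthinned). IL7R, the receptor chain for interleukin-7, was at 47.1 CPM with gRNA3 and 12.9 CPM in the VPR control, a log2 ratio of 1.80 (1.68 to 1.91). It was also high with gRNA2 (57.2 CPM) and in HA FOSL1 cells (113 CPM) and low in the HA control (11.3 CPM). The other 5 cytokine receptors of the list that reached 20 CPM had log2 ratios between -0.38 (IFNGR1) and -0.17 (IL6ST).

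Genes of caveolae, the small pits of the plasma membrane, were higher together. All 3 members of the caveola list that reached 20 CPM were past 1.5-fold higher, against 0.958% of all compared genes. Their median was 1.04, where the median over all compared genes was 0.0019. Over the 6 detected members the median was 0.68 and 4 were past 1.5-fold higher. The list was chosen with earlier results of these data known, so these counts are no independent support. CAV1, the main coat protein of caveolae, stood at 919 CPM in gRNA3 cells, 827 CPM with gRNA2, 1384 CPM in HA FOSL1 cells, 287 CPM in the VPR control and 284 CPM in the HA control. The 3 samples with raised FOSL1 lay above the 2 controls. How many of all genes show this order was not counted, and CAV1 was chosen for its ratio. Its log2 ratio was 1.67 (1.65 to 1.70). The share of cells with a CAV1 UMI was 88.5% with gRNA3 and 58.4% in the VPR control after thinning, and 98.0% and 85.4% unthinned. Cells with 5 or more CAV1 UMIs were 38.4% of gRNA3 cells and 6.03% of VPR control cells, and the median cell held 3 and 1. CAV2, its partner and near it on chromosome 7, was at 339 CPM against 165 CPM (1.04). CAVIN1, which stabilises the coat, was at 183 CPM against 111 CPM (0.72).

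**Figure D2:**
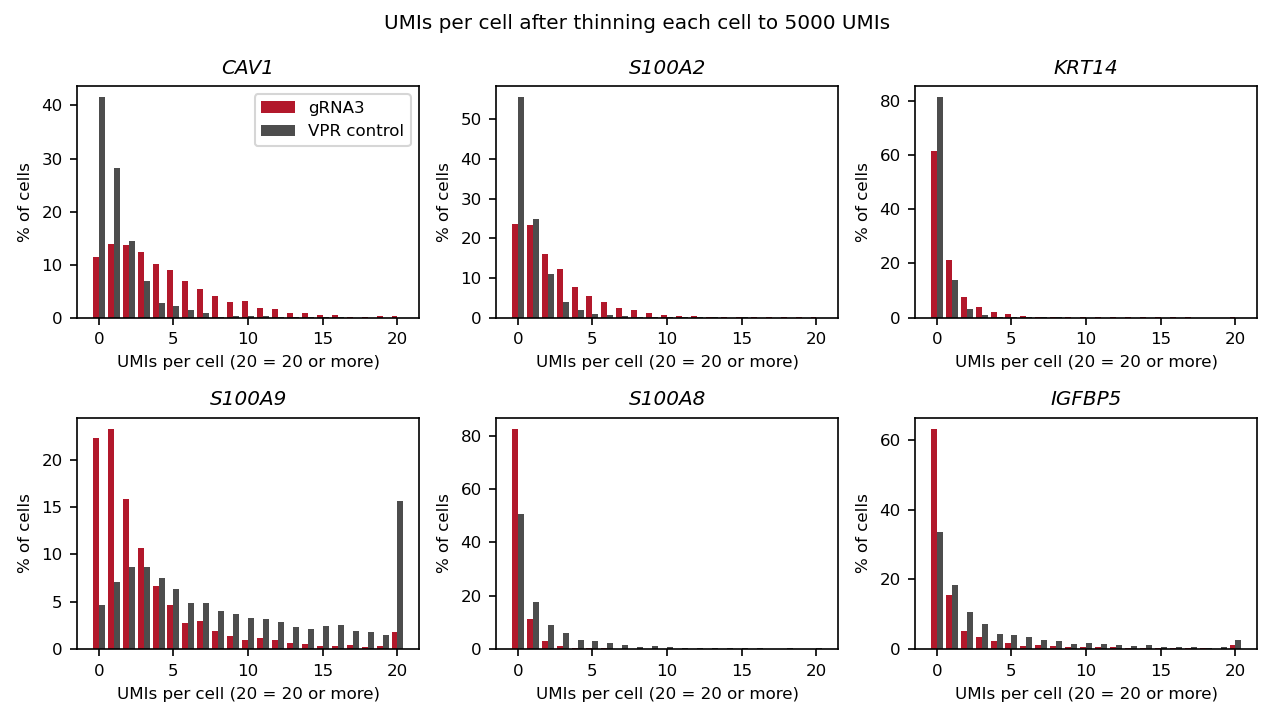
Share of cells (vertical axis, %) by number of UMIs of a gene per cell (horizontal axis, 20 standing for 20 or more) after thinning to 5000 UMIs, for gRNA3 cells (red) and VPR control cells (grey). CAV1, S100A2 and KRT14 have fewer cells at 0 with gRNA3, and S100A9, S100A8 and IGFBP5 have more.

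Keratins of basal and stressed epithelium formed another group on the higher side. Of the 5 members at 20 CPM, 4 were past 1.5-fold higher, against 0.958% of all compared genes. None was lower, and the median was 0.67. This list too was chosen with earlier results of these data known. KRT14, the keratin that marks basal cells of breast and skin, was at 165 CPM in gRNA3 cells and 51.5 CPM in VPR control cells, a log2 ratio of 1.66 (1.60 to 1.72). After thinning, 38.4% of gRNA3 cells and 18.6% of VPR control cells held a KRT14 UMI, with 67.2% and 41.0% unthinned. KRT16, a keratin of stressed and wounded epithelium, was at 199 CPM against 80.6 CPM (1.29). KRT5, the partner of KRT14, was at 405 CPM against 254 CPM (0.67), and KRT15 at 60.3 CPM against 38.3 CPM (0.64). KRT17, at 725 CPM in gRNA3 cells and 592 CPM in the VPR control (0.29), stayed under 1.5-fold. The simple keratins differed less, with KRT18 at 1985 CPM against 1745 CPM (0.19) and no member of the list past 1.5-fold. KRT14, KRT16 and KRT17 are close in sequence, so some tags may have been counted to the wrong member.

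The kallikreins, secreted serine proteases clustered on chromosome 19, had a median log2 ratio of 0.40 over 10 detected members, of which 5 were past 1.5-fold higher and none lower. The 3 members that reached 20 CPM were all past it, with a median of 1.08, where 0.958% of all compared genes were. The kallikrein list was likewise chosen with earlier results of these data known. KLK6 was at 88.9 CPM with gRNA3 and 29.9 CPM in the VPR control (1.54, 1.46 to 1.62), KLK10 at 128 against 59.9 CPM (1.08) and KLK5 at 756 against 430 CPM (0.82). The VPR control itself exceeded the HA control for these 3 genes, by 0.61, 0.36 and 0.56 on the log2 scale. In HA FOSL1 cells KLK6 reached 191 CPM, against 19.3 CPM in the HA control.

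Genes of the matrix and of adhesion differed gene by gene. COL5A2, a chain of fibrillar collagen V, was at 49.6 CPM in gRNA3 cells and 15.6 CPM in VPR control cells (1.61, 1.5 to 1.72), and was the only member past 1.5-fold among 4 collagen and matrix genes at 20 CPM. LAMB3, the beta chain of laminin-332, lay below that level and was at 21.5 CPM against 5.69 CPM (1.75, 1.58 to 1.91). None of the 5 laminin and hemidesmosome genes at 20 CPM was past 1.5-fold. ITGA3, an integrin chain that binds laminin-332, was at 61.8 CPM against 39.5 CPM (0.63). TIMP1, an inhibitor of metalloproteases, was lower at 28.8 CPM with gRNA3 and 45.3 CPM in the VPR control (-0.64). ADAMTS1, a secreted metalloprotease, was at 52.2 CPM with gRNA3, 35.2 CPM with gRNA2, 18.4 CPM in HA FOSL1 cells, 20.5 CPM in the VPR control and 32.5 CPM in the HA control. Its log2 ratio was 1.3 over the VPR control and 0.67 over the HA control, and HA FOSL1 cells were lower than their own control (-0.79).

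Among secreted regulators, DKK1, an antagonist of Wnt signalling, was at 145 CPM in gRNA3 cells and 67.7 CPM in VPR control cells (1.08), and TGFB1 at 28.7 against 12.8 CPM (1.11). The other 5 genes at 20 CPM in the list of Wnt and BMP antagonists and targets were lower, from -0.46 (ID4 and APCDD1) to -0.29 (BAMBI), and none was past 1.5-fold. AREG, a ligand of the EGF receptor, was under 20 CPM and stood at 18.9 CPM with gRNA3 and 8.84 CPM in the VPR control (1.02). EGFR itself was at 2339 CPM against 1829 CPM (0.35), which made it the fifth largest gain in CPM of any gene. ALPP, a placental alkaline phosphatase with a close paralog, was at 102 CPM against 37.2 CPM (1.43), with 22.7 CPM in the HA control. AKR1B1, aldose reductase, was at 206 CPM against 88.5 CPM (1.21), with 56.2 CPM in the HA control. The VPR control over the HA control was 0.69 for ALPP and 0.65 for AKR1B1. UPP1, uridine phosphorylase, was at 166 CPM against 85.0 CPM (0.96). SFN, the 14-3-3 sigma protein of epithelial cells, was at 366 CPM against 236 CPM (0.63). FBXO2, NETO2, CLIC3, PCDH19, ATP6V0D2 and IGSF23 made up the rest of the 24 genes past 2-fold higher, with log2 ratios between 1.03 (IGSF23) and 1.37 (FBXO2).

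The S100 genes, small calcium-binding proteins of which most lie together on chromosome 1, split in both directions. Of 12 members at 20 CPM, 4 were past 1.5-fold higher and 3 past 1.5-fold lower. In the order of the chromosome, S100A9, S100A8 and S100A7 had log2 ratios of -1.63, -2.35 and -2.0. The next expressed members, S100A6, S100A4, S100A3 and S100A2, had ratios of 0.63, 1.24, 1.02 and 1.49. Members on either side lay nearer 0, from S100A14 at -0.06 to S100A10 at 0.42.

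S100A8 and S100A9, which form the antimicrobial protein calprotectin, were the clearest losses. S100A9 stood at 639 CPM in gRNA3 cells, 571 CPM with gRNA2, 706 CPM in HA FOSL1 cells, 1985 CPM in the VPR control and 1533 CPM in the HA control. The controls lay above all 3 samples with raised FOSL1. The share of all genes with this order was not counted, and S100A9 was chosen for its values. After thinning, 77.7% of gRNA3 cells held a S100A9 UMI against 95.4% of VPR control cells (96.7% and 99.5% unthinned). The median cell held 2 UMIs with gRNA3 and 7 in the VPR control, and positive cells held 4.25 and 10.9 on average. S100A8 was at 66.2 CPM with gRNA3 and 342 CPM in the VPR control (-2.35, -2.39 to -2.31). Its share of cells was 17.2% against 49.5% thinned and 36.4% against 69.7% unthinned, the largest difference in share on the lower side, with free RNA at 185 CPM above the level in gRNA3 cells. S100A7, psoriasin, was at 77.8 CPM with gRNA3, 65.7 CPM with gRNA2, 91.4 CPM in HA FOSL1 cells, 315 CPM in the VPR control and 110 CPM in the HA control. The VPR control stood alone there, and gRNA3 over the HA control was -0.50.

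On the higher side, S100A4, a protein linked to cell motility, was at 818 CPM in gRNA3 cells and 346 CPM in VPR control cells (1.24, 1.21 to 1.26), with 271 CPM in the HA control. S100A6 was at 4680 CPM against 3014 CPM (0.63), the second largest gain in CPM. S100A2 was at 482 CPM with gRNA3, 437 CPM with gRNA2, 266 CPM in HA FOSL1 cells, 171 CPM in the VPR control and 273 CPM in the HA control. The guides lay above all other samples, and HA FOSL1 cells did not lie above the HA control. The S100A2 ratio was 1.49 over the VPR control and 0.82 over the HA control. Its share of cells was 76.3% with gRNA3 and 44.3% in the VPR control after thinning (95.1% and 74.8% unthinned), the largest difference in share on the higher side.

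**Figure D3:**
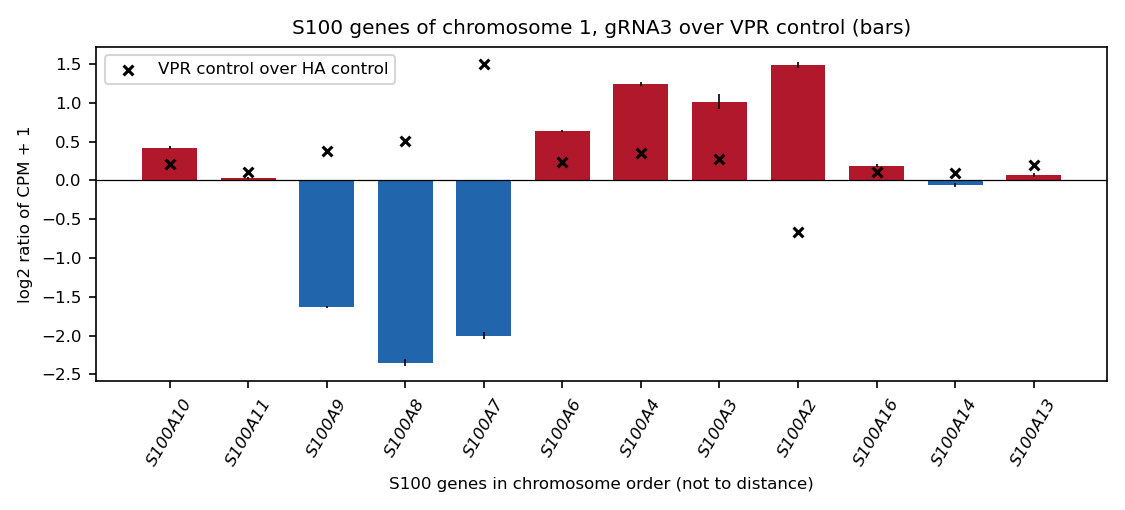
Log2 ratios of CPM + 1, gRNA3 over the VPR control, for 12 S100 genes averaging 20 CPM or more in their order on chromosome 1 (bars, red above 0 and blue below, black lines for 95% counting intervals), with crosses for the VPR control over the HA control. The bars of S100A9, S100A8 and S100A7 lie below -1.5, the bars from S100A6 to S100A2 above 0.5, and the crosses of S100A7 and S100A2 lie at 1.51 and -0.67.

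AP-1 is known to bind TGANTCA, a motif that reads the same on both strands. Promoters of 4 S100 genes are shown, S100A2 and S100A3 because they hold the motif, and S100A8 and S100A9 because they had the lowest ratio and the largest loss in CPM among genes that are not mitochondrial. S100A2 and S100A3 were thus chosen for the motif, and its presence in them is no result. They are RefSeq sequences of GRCh38.p14 from 250 bases before to 50 after the first listed start, with each match in capitals, and no other motif was searched. The windows on the minus strand are chr1:153565795-153566094 for S100A2, chr1:153549209-153549508 for S100A3 and chr1:153391139-153391438 for S100A8. The S100A9 window is chr1:153357604-153357903 on the plus strand.
S100A2: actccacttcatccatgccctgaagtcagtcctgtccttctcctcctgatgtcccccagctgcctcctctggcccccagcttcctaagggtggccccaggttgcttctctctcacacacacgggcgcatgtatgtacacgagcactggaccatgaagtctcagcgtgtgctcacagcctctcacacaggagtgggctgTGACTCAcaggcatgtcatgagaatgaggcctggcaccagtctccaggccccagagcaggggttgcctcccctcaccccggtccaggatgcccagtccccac
S100A3: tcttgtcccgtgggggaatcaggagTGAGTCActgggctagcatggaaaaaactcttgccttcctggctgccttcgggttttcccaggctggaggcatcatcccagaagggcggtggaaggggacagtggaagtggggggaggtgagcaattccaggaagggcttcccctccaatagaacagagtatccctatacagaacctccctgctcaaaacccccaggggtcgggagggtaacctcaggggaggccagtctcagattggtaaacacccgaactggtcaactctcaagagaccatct
S100A8: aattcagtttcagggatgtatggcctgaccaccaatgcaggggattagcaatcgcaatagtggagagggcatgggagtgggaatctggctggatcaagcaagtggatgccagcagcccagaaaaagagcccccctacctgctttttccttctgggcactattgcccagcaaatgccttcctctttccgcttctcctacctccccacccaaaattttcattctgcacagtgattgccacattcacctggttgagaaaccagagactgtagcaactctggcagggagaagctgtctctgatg
S100A9: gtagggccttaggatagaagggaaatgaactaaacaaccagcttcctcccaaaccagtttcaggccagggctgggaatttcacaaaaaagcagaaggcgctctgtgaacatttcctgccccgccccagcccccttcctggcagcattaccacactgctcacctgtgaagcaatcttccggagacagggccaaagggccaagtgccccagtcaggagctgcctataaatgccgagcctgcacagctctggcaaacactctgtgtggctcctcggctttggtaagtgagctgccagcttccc
The match begins 52 bases before the start in S100A2 and 225 bases before it in S100A3, and the S100A8 and S100A9 windows hold none. The windows of S100A4 and S100A6, which were higher, and of S100A7, which was lower, hold none either. Of the genes past 2-fold, 18 of the 24 higher ones have a promoter in the table and 2 of these (11.1%) hold the motif, namely S100A2 and S100A3. None of the 8 lower genes with a promoter holds it. For comparison, 185 of 4666 compared genes (3.96%) and 2707 of 35116 promoters of the whole table (7.71%) hold it. A match is a string of letters and not a measured binding site.

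Outside the S100 genes, 8 genes were past 2-fold lower. PI3, the protease inhibitor elafin, was at 99.3 CPM in gRNA3 cells, 114 CPM with gRNA2, 148 CPM in HA FOSL1 cells, 271 CPM in the VPR control and 359 CPM in the HA control. Its log2 ratio was -1.44 (-1.48 to -1.40), and 31.7% of gRNA3 cells held a UMI after thinning against 63.7% of VPR control cells (63.6% and 89.3% unthinned). SLPI, a related inhibitor near it on chromosome 20, was at 287 CPM against 539 CPM (-0.91). These were the 2 members past 1.5-fold among 7 cornified envelope and barrier genes at 20 CPM, and the list's median was -0.20 over these 7 and 0.017 over its 16 detected members. LCN2, which binds iron carriers of bacteria, was at 120 CPM with gRNA3 and 170 CPM in the VPR control (-0.49).

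Secreted products of luminal and apocrine breast cells had a median log2 ratio of -0.11 over 11 detected members, several of them near 0 CPM in both samples, and 3 of the 11 were past 1.5-fold lower. Over the 4 members at 20 CPM the median was -0.72 and 2 were past 1.5-fold lower, against 0.836% of all compared genes. CLU, an extracellular chaperone, was at 30.1 CPM in gRNA3 cells and 74.7 CPM in VPR control cells (-1.28), and AGR2, a disulfide isomerase of secretory cells, at 31 CPM against 62.6 CPM (-0.99). AZGP1 was at 554 CPM against 755 CPM (-0.45) and MUC1, a surface mucin, at 47.8 CPM against 51.7 CPM (-0.11). PROM1, a surface marker of luminal progenitors, was at 15.3 CPM against 27.9 CPM (-0.83), the single member past 1.5-fold among 11 mammary lineage genes. Growth regulators split in both directions. In the list of IGF-binding proteins and growth factors 3 of 7 members at 20 CPM were past 1.5-fold lower and 1 was past it higher, with a median log2 ratio of 0.013 (0.059 over the 12 detected members). IGFBP5, which binds insulin-like growth factors, was at 317 CPM with gRNA3, 348 CPM with gRNA2, 570 CPM in HA FOSL1 cells, 782 CPM in the VPR control and 1419 CPM in the HA control. Its log2 ratio was -1.30, and the controls themselves differed by -0.86. MDK, the growth factor midkine, was at 111 CPM against 255 CPM (-1.19), and IGFBP2 at 36.2 CPM against 68.5 CPM (-0.90). FGFBP1, a secreted carrier of fibroblast growth factors, was the member past 1.5-fold higher, at 132 CPM with gRNA3, 77.4 CPM in the VPR control and 132 CPM in the HA control (0.76 over the VPR control and -0.0024 over the HA control). IGFBP3 of the same list was at 300 CPM in gRNA3 cells and 216 CPM in VPR control cells (0.47).

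SELENOP, a secreted carrier of selenium, was at 17.8 CPM with gRNA3 and 60.2 CPM in the VPR control (-1.70, -1.79 to -1.61), and the other 8 selenoproteins at 20 CPM were not past 1.5-fold. CYP4X1, a cytochrome P450, was at 13.8 CPM against 40.7 CPM (-1.49) and PALMD at 11.5 CPM against 29.5 CPM (-1.28). SAT1, which acetylates polyamines, was at 391 CPM against 763 CPM (-0.96). SPRY1, a feedback inhibitor of receptor tyrosine kinase signalling, was at 14.7 CPM against 33.0 CPM (-1.11). MGP, an inhibitor of calcification, was at 1828 CPM in gRNA3 cells and 3041 CPM in VPR control cells (-0.73), the largest loss in CPM after S100A9 among genes that are not mitochondrial. On the gain side FTH1, the heavy chain of the iron store ferritin, had the largest difference, at 15205 CPM with gRNA3 and 10272 CPM in the VPR control (0.57), while FTL, the light chain, was at 465 and 426 CPM (0.13).

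**Figure D4:**
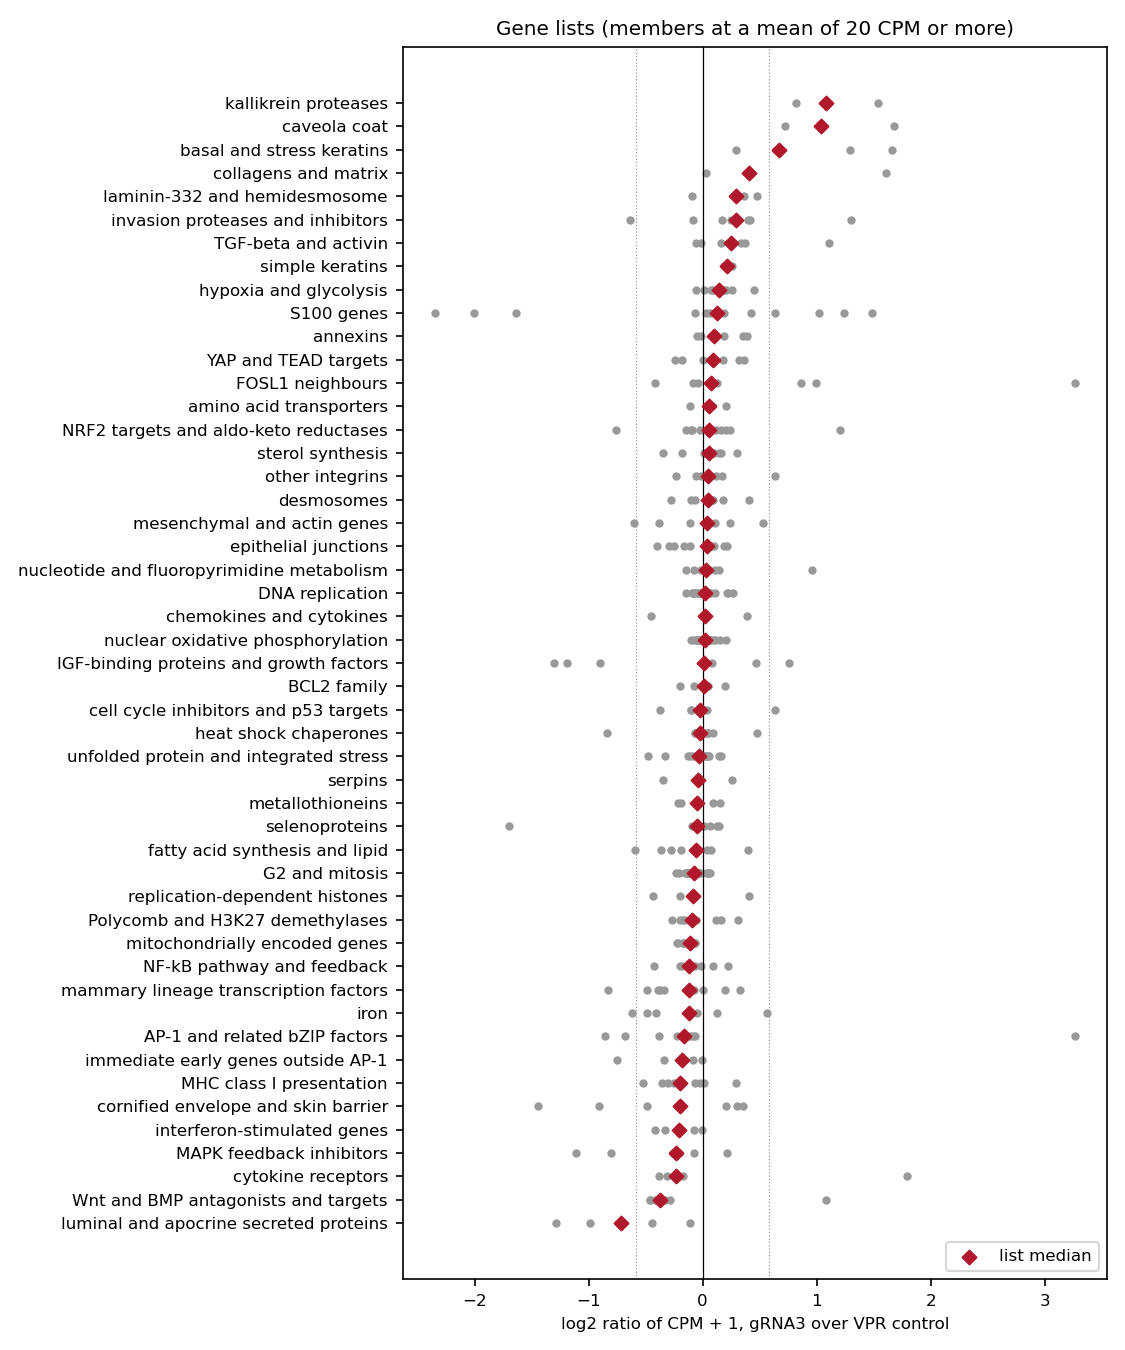
Log2 ratios of CPM + 1, gRNA3 over the VPR control, of the members averaging 20 CPM or more in each gene list with 3 or more of them, cytosolic ribosomal proteins left out (grey points), with the list median (red diamonds) and dotted lines at 1.5-fold. Kallikreins, caveola genes and basal keratins stand highest, with medians of 1.08, 1.04 and 0.67, and luminal and apocrine secreted proteins lowest at -0.72. Over all detected members these medians are 0.40, 0.68, 0.67 and -0.11.

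Other members of the FOSL1 family were not higher with gRNA3. FOS was at 29.0 CPM in gRNA3 cells, 65.6 CPM with gRNA2, 15.4 CPM in HA FOSL1 cells, 53.1 CPM in the VPR control and 72.1 CPM in the HA control. FOSB was at 38.8, 73.2, 18.3, 63.0 and 69.5 CPM in the same samples. Both were lower with gRNA3 than in its control (-0.85 and -0.68) and higher with gRNA2 (0.30 and 0.21). JUN was at 151 CPM with gRNA3 and 197 CPM in the VPR control (-0.38), JUND at 158 against 184 CPM (-0.22) and JUNB at 111 against 117 CPM (-0.08). FOSL2, under 20 CPM, was at 15.7 against 18.7 CPM (-0.24). Of the 8 AP-1 and related genes at 20 CPM, FOSL1 was the only one past 1.5-fold higher, and FOS and FOSB were the 2 past it lower. Of 7 other immediate early genes, which growth factors switch on within minutes, NR4A1 was the single one past 1.5-fold, at 19.3 CPM with gRNA3 and 33.1 CPM in the VPR control (-0.75). EGR1 was at 65.2 CPM against 82.5 CPM (-0.34). DUSP1, a phosphatase of MAP kinases, was at 17.5 CPM against 31.3 CPM (-0.80).

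Genes around FOSL1 on chromosome 11 were described because they lie, at different distances, near the promoter to which the activator is brought. Of the 9 genes at 20 CPM in this stretch, FOSL1 included, 3 were past 1.5-fold higher and none lower. Over all compared genes 0.958% were past 1.5-fold higher. The 3 genes of the stretch were FOSL1, DRAP1 and CST6. FOSL1 was raised by design, so its place among them is no result about the stretch. DRAP1 (chr11:65919426-65921563), a transcriptional corepressor subunit, was at 397 CPM in gRNA3 cells, 334 CPM with gRNA2, 409 CPM in HA FOSL1 cells, 218 CPM in the VPR control and 206 CPM in the HA control. CST6 (chr11:66012008-66013505), a cystatin farther from FOSL1 than DRAP1, was at 59.9, 59.7, 146, 29.6 and 27 CPM in the same samples. C11orf68, between FOSL1 and DRAP1, was at 22.4 CPM with gRNA3 and 14.9 CPM in the VPR control (0.56). CCDC85B, on the other side and adjoining FOSL1, was lower at 90.2 CPM with gRNA3, 68 CPM with gRNA2 and 121 CPM in the VPR control (-0.42 for gRNA3). FIBP, MUS81, SART1, EIF1AD and BANF1 lay between -0.08 and 0.12.

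Several programs showed no member past 1.5-fold at 20 CPM. These were 20 genes of DNA replication with a median log2 ratio of 0.02, 22 of G2 and mitosis (-0.08), 14 of sterol synthesis (0.05), 15 of the unfolded protein response (-0.03), 27 nuclear genes of oxidative phosphorylation (0.02) and 86 cytosolic ribosomal proteins (0.02). The same held for 11 epithelial junction genes (0.03), 7 desmosomal genes (0.05) and 6 of the BCL2 family (0.01). Antigen presentation by MHC class I was low by small amounts, with a median of -0.20 over 10 genes and HLA-B at 308 CPM in gRNA3 cells and 442 CPM in VPR control cells (-0.52). Over the same 10 genes the median was 0.14 for the VPR control over the HA control. It was 0.19 for HA FOSL1 over the HA control. HLA genes are close in sequence, so reads may be shared among them. The 13 mitochondrially encoded genes had a median of -0.11, with MT-CO3 at 20929 CPM with gRNA3 and 23481 CPM in the VPR control (-0.17).

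Genes at 3 to 20 CPM were counted apart, and of 5145 such genes 24 (0.466%) were at least 2-fold higher and 27 (0.525%) at least 2-fold lower. SERPINB7, an epidermal protease inhibitor, was at 33.8 CPM with gRNA3 and 5.27 CPM in the VPR control (2.47, 2.31 to 2.64), with 74.1 CPM in HA FOSL1 cells and 4.91 CPM in the HA control. CA9, a carbonic anhydrase known from hypoxia, was at 10.4 CPM with gRNA3, 5.41 CPM with gRNA2, 2.33 CPM in HA FOSL1 cells, 3.10 CPM in the VPR control and 2.37 CPM in the HA control. None of the 10 hypoxia and glycolysis genes at 20 CPM was past 1.5-fold, LDHA being the highest at 820 CPM against 601 CPM (0.45). L1CAM, a neural adhesion molecule, was at 9.60 CPM against 3.04 CPM (1.39), and VIM, the mesenchymal filament vimentin, at 16.5 CPM with gRNA3 and 9.04 CPM in the VPR control (0.80). On the lower side CRISP3, a secreted protein of glands, was at 2.69 CPM with gRNA3 and 14.9 CPM in the VPR control (-2.11, -2.28 to -1.93). HSD17B2, which inactivates oestradiol, was at 3.23 CPM against 15.5 CPM (-1.96), SOX11 at 5.68 CPM against 20.1 CPM (-1.66) and DEFB1, an epithelial defensin, at 7.91 CPM against 23.4 CPM (-1.45).

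The guides could be compared with each other directly. Of 5730 genes that averaged 20 CPM or more in the gRNA3 and gRNA2 samples, 5 (0.0873%) were past 1.5-fold, against 15 of 5726 between the controls. OLFML3 was higher with gRNA3, by 1.31 on the log2 scale. FOS, FOSB, DUSP1 and NR4A1 were lower with gRNA3 than with gRNA2, FOS by the largest margin (-1.15). FOSL1 was slightly lower with gRNA3 (-0.09, -0.14 to -0.04). The comparisons of the guides with their control share the VPR control sample, so their values are set side by side without a measure of likeness. CAV1 had 1.67 with gRNA3 and 1.52 with gRNA2, KRT14 1.66 and 1.65, S100A8 -2.35 and -2.56, and PI3 -1.44 and -1.25.

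HA FOSL1 cells and the HA control share no sample with this pair. There, 124 of 5748 genes (2.16%) were at least 2-fold higher and 46 (0.8%) at least 2-fold lower, and FOSL1 itself had a log2 ratio of 2.70. The labels do not describe HA, so how fully 3' tags count the FOSL1 of these cells is not known. The FOSL1 ratios of the 2 comparisons can therefore not be set against their numbers of genes. Of the 24 genes past 2-fold higher with gRNA3, 18 were past 2-fold higher in HA FOSL1 cells too, and of the 11 lower genes 8 were past 2-fold lower. FOSL1, raised by design in both, is counted in the 24 and in the 18. ADAMTS1 was past 1.5-fold in the opposite direction, and no lower gene was, where 343 genes (5.97%) were past 1.5-fold higher and 126 (2.19%) lower. CAV1 had a log2 ratio of 2.28 there, KRT14 2.12, KLK6 3.25 and S100A9 -1.12. TAGLN, an actin-binding protein of smooth muscle, was at 22 CPM with gRNA3 and 33.8 CPM in the VPR control (-0.60) but at 73.4 CPM in HA FOSL1 cells and 27.4 CPM in the HA control (1.39). INHBA, the activin A subunit, had 0.37 with gRNA3 and 2.13 in HA FOSL1 cells.

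**Figure D5:**
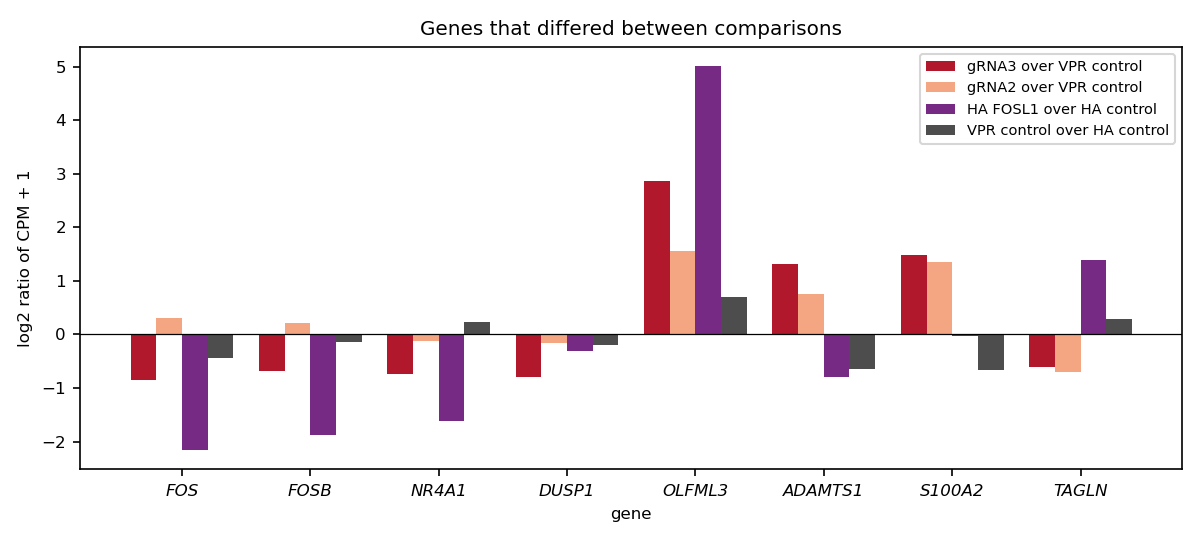
Log2 ratios of CPM + 1 (vertical axis) of 8 genes whose ratio differed between comparisons, for gRNA3 and gRNA2 over the VPR control, HA FOSL1 over the HA control and the VPR control over the HA control. FOS has -0.85 with gRNA3, 0.30 with gRNA2 and -2.16 with HA FOSL1, and the bars are ratios of single samples with no replicate error.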

How the data were processed

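The authors deposited a matrix of raw UMI counts, made with Cell Ranger, per the submitters' processing notes, and version 4 per the file headers. The same notes name hg38 as the build. A deposited table assigns called cells to hashtags with a probability, given by the authors as a fraction, made with a tool not given in the sources used here. It lists 21228 called cells, of which 15371 were assigned to 1 sample, and 5181 multiplets were left out. The cells came from 1 library, and 0 barcodes were listed more than once. Doublets within a sample were not called. The HA samples were matched to hashtags named GOF by elimination, whereas the VPR hashtags name their samples. The labels speak of a pool of 6 samples, and the 5 with hashtags were analysed here.

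UMIs of kept cells were summed per sample with Python 3.11.15, pandas 2.3.3 and scipy 1.17.1 and scaled to CPM. Levels have exact Poisson intervals, shares Clopper-Pearson (exact binomial) intervals, and ratios the exact conditional binomial interval moved to the scale of CPM + 1. In data simulated for this comparison with 5728 genes, 95.3% of the intervals of the 5528 genes simulated without a change held 0. The simulated sums were Poisson counts, as the interval assumes. This checks the calculation and says nothing of spread between cells or cultures. Free RNA was profiled in 48909 barcodes with 10 to 100 UMIs. Named genes were those with the 15 highest and 15 lowest ratios at 20 CPM, the 8 highest and lowest at 3 to 20 CPM, the largest differences in CPM and share, and members of 54 gene lists and FOSL1 neighbours past 1.5-fold or at the highest level. The genes in the comparison of guides and HA FOSL1 were also chosen for their values. Members, lists and rules were chosen with earlier results of these data known. RefSeq positions matched 167 of 177 named genes by symbol or identifier. TMM factors, tried as another scaling, came from edgeR 4.0.16, and all alternatives are given in the closing section. A marker of the leukocyte list is not reported here.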

Additional observations from a re-analysis of the deposited data

Results flagged for a closer look

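The 4 results here differed in direction between comparisons of single samples, and these differences were not tested. TAGLN had a log2 ratio of -0.60 for gRNA3 over the VPR control and 1.39 for HA FOSL1 over the HA control. ADAMTS1 had 1.3 and -0.79 in the same comparisons, and the VPR control over the HA control was itself -0.64. FOS had -0.85 with gRNA3 and 0.30 with gRNA2, both over the VPR control, and -2.16 for HA FOSL1 over the HA control. FOSB had -0.68, 0.21 and -1.87 in these 3 comparisons. The ratios of the guides share the VPR control sample.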

How the results depend on the processing

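The FOSL1 ratio of 3.27 was 2.84 with a pseudocount of 5 CPM, 3.09 with at least 3000 genes and at most 10% mitochondrial UMIs per cell, 3.13 as a mean over cells and 3.78 with 5% of UMIs subtracted as free RNA. The 24 higher and 11 lower genes became 42 and 29 at a mean of at least 5 CPM, 13 and 7 at 50 CPM, 58 and 48 with no filter on low levels, and 55 and 48 at 1.5-fold. With the HA control in place of the VPR control, 25 genes were lower. The share of gRNA3 cells with a FOSL1 UMI, 29.4%, was 46.3% at 10000 UMIs per cell and 61.5% with no thinning. In the opposite direction lay KRT34 (-0.12) and FGFBP1 (-0.0024) with the HA control, against 0.69 and 0.76 with the VPR control, and the median of the cytochrome P450 list (0.13) under the stricter cell filter. That median was -0.79 over 2 members with the main filter. Under the stricter filter CYP4X1 fell below 20 CPM and out of the median, and its own ratio stayed past 2-fold lower. The cause of the other moves was not tested, other than that a lower minimum or fold admits more genes by construction. The 30 genes with the highest and lowest ratios were recomputed under 330 combinations of gene and setting. They moved beyond their counting interval in 115 and kept their direction in each of the 330. Scaling by TMM or by size factors shifted the median of all compared genes by 0.04 log2. No paired analysis was possible because each group held 1 sample. Depth limits shares of genes near 1 UMI per cell, and with 1 sample a side the guide and a difference between cultures cannot be told apart.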
